A study of Mus musculus with 24 samples.

Results

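The methylomes of mouse liver and brain were compared at 775900 genomic tiles of 100 bp that were present at the same position in the liver and the brain tables of levels. They made up 94.7% of the liver table (819713 tiles) and 82.3% of the brain table (942643), out of 1005908 tiles found in any of the liver, brain and heart tables. All mice were of the inbred strain C57Bl/6J and 24 weeks old, with no treatment given in the labels, and with males and females in equal numbers in each tissue. The 12 livers were sampled at the far caudal end of the left lobe, and the 6 brains as a coronal slice from the rostral end. By the study's account the brains, like the 6 hearts used here for orientation only, came from mice that also gave a liver. The tables name their columns by running numbers that identify neither the mouse nor its gender, so all columns of a tissue formed 1 group and a liver could not be linked to the brain of the same animal. Brain and heart libraries carry an extra number in their labels that liver libraries lack, and tissue and library series cannot be told apart.

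DNA methylation in mammals is placed mostly on cytosines that precede a guanine (CpG). Dense groups of CpGs, the CpG islands, are usually free of it, while most CpGs elsewhere are methylated. Within gene bodies and between genes, tissues differ chiefly at enhancers, where methylation tends to be lower in the cell types that use them. Reduced representation bisulphite sequencing (RRBS) enriches for CpG-rich fragments, here cut by restriction enzymes, and bisulphite converts unmethylated cytosines. The assay does not separate methylated from hydroxymethylated cytosine, and the latter is abundant in brain. A whole organ holds many cell types, so a different share of cells and a different level within a cell type cannot be told apart.

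Tissue means were compared per tile with limma, and a tile was called when its adjusted p was at most 0.01 and the difference of the means was at least 25 percentage points (points below). Sequences of 10 of the tiles described below, some among the largest differences and some from the gene lists, are shown first, from mm10 (GRCm38), plus strand, with CpGs in capitals, because a level is the mean over these few CpGs. The first 3 tiles were higher in liver, and they lie in Map4, which encodes a microtubule-associated protein, in Lrrc4, a postsynaptic adhesion protein, and in Bcl11b, a transcription factor of cortical and striatal neurons. The Lrrc4 tile also lies within Snd1, another protein-coding gene.
Map4, chr9:110052301-110052400: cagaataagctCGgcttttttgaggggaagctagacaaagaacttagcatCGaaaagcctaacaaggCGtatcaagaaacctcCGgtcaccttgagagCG
Lrrc4, chr6:28831601-28831700: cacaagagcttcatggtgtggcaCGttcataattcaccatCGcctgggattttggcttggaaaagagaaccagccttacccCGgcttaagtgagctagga
Bcl11b, chr12:107928701-107928800: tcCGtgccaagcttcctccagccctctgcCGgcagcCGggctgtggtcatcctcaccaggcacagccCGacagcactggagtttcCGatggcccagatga
The next 5 were lower in liver. They lie in Rasgef1b (an exchange factor for Ras-family GTPases), Kcnq1 (a potassium channel), Cmip, Ppara (the nuclear receptor that drives hepatic fatty acid oxidation) and Trf (transferrin, the iron carrier of plasma that hepatocytes secrete).
Rasgef1b, chr5:99234501-99234600: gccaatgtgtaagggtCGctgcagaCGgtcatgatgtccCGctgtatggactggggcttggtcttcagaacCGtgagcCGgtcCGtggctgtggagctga
Kcnq1, chr7:143367601-143367700: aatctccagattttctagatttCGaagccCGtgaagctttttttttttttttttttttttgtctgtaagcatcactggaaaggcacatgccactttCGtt
Cmip, chr8:117440801-117440900: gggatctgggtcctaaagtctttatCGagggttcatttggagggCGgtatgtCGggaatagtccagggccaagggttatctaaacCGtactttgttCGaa
Ppara, chr15:85774601-85774700: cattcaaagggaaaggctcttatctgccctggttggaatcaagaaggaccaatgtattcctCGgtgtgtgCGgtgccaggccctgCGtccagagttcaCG
Trf, chr9:103220501-103220600: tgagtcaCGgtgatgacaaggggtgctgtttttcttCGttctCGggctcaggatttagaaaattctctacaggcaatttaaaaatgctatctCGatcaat
The last pair, in Kazn and Foxp1, is shown because every brain column lists these tiles at 0.
Kazn, chr4:142213501-142213600: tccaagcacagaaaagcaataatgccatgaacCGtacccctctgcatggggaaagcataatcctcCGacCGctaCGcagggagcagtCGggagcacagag
Foxp1, chr6:99009801-99009900: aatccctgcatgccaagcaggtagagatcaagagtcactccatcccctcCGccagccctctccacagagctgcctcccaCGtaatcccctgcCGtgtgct

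Liver and brain differed at about 1 tile in 10. Of the 775900 tiles, 38840 (5.01%) were higher and 36852 (4.75%) were lower in liver, so that 51.3% of the 75692 called tiles were higher. The larger differences lay on the other side: at least 40 points separated 11734 tiles that were higher and 17917 that were lower in liver, and at least 60 points separated 875 and 5288 tiles. The largest difference was 97.3 points for a tile higher in liver and -84.8 points for a tile lower in liver. On the adjusted p alone, 29.3% of all tiles passed, 126922 higher and 100467 lower in liver. In 65430 called tiles (86.4%) no liver column overlapped any brain column, which the size required for a call nearly fixes. Over all tiles the share without overlap was 14.5%.

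Most of the measured methylome was alike in both tissues. The difference was within 5 points at 54% of the tiles, and its median over all tiles was 0.275 points. Both tissues were above 80% at 325512 tiles (42%) and below 20% at 121743 tiles (15.7%). The spread between columns was small beside the size required for a call, with a median SD of 4.49 points in liver (n = 12) and 4.66 in brain (n = 6). The mean level over all tiles was 65.6% ± 0.338 in liver (SD, n = 12) and 65.5% ± 0.915 in brain (SD, n = 6), and the ranges overlapped, from 65.1 to 66.4% and from 64 to 66.7%. Pearson correlations between columns, over tiles that are not independent, ran from 0.964 to 0.976 within liver, from 0.94 to 0.975 within brain and from 0.856 to 0.882 between the tissues.

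**Figure D1:**
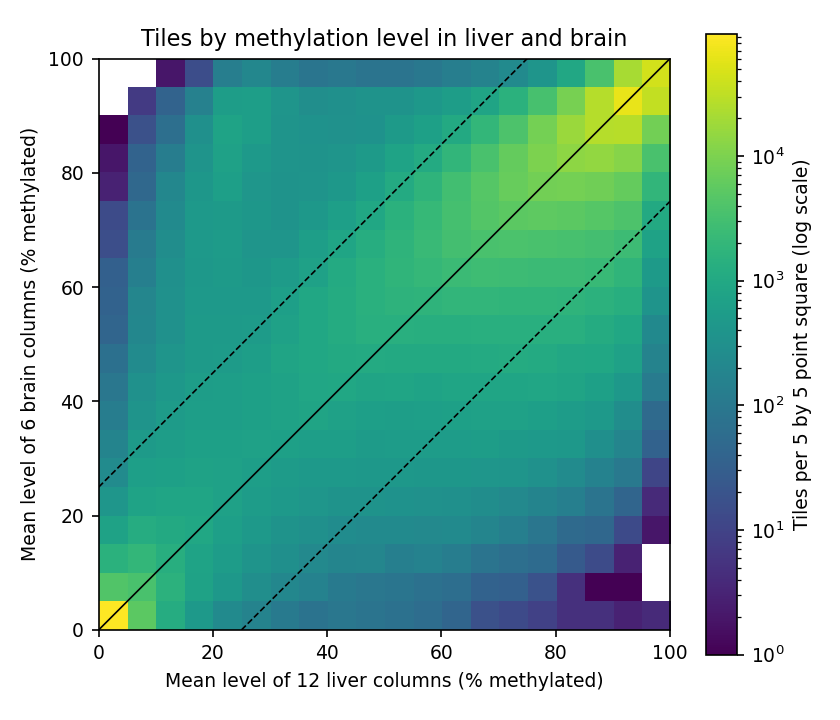
Tiles by mean methylation level in liver (x axis, %) and brain (y axis, %), counted in squares of 5 by 5 points with a logarithmic colour scale. The solid line marks equal levels and the dashed lines a difference of 25 points. The corners near 0 and near 100% hold most tiles, and more tiles lie in the upper left (1171 below 20% in liver and above 80% in brain) than in the lower right (179 tiles).

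Called tiles were rarely switches between empty and full methylation. Tiles higher in liver had a median level of 82% in liver and 43.9% in brain, and tiles lower in liver had medians of 27.6% and 76%. The quartiles of the brain levels at tiles higher in liver were 31.1 and 54.9%. A level below 20% in liver together with one above 80% in brain was found at 1171 tiles, and the reverse at 179 tiles. Of the 1171 tiles, 50.5% were intronic, 36.7% intergenic, 4.01% in promoters and 0% in CpG islands. Of the 179 tiles, 46.9% were intronic, 16.8% in coding exons and 5.59% in islands. The columns did not overlap in any of these tiles, which the limits on the means nearly fix.

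The heart, at tiles that also had a heart level, stood between liver and brain in most called tiles. Its level lay between the means of the other tissues in 72.7% of the 38225 tiles higher in liver and in 69.1% of the 36055 tiles lower in liver. A gap of at least 25 points leaves more room for a value between than the smaller gaps of other tiles do, so these shares are given as a description. Heart was nearer to brain than to liver in 54.5% of the former and in 60.5% of the latter, and median heart levels were 59.4 and 59.8%. The heart levels were not tested.

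Calls were scarce where CpGs were dense. In CpG islands 1.05% of 84822 tiles were higher and 0.431% were lower in liver, and in the shores within 2000 bp of an island the shares were 4.88 and 5.28%. Outside of islands and shores they were 5.55 and 5.28%. Tiles with 1 CpG were called lower (6.14%) more often than higher (4.91%), while tiles with 5 to 6 CpGs were called higher (4.52%) more often than lower (2.88%). Tiles with 10 or more CpGs reached 0.721 and 0.247%. Within islands both tissues were nearly unmethylated, and the medians were 1.29% in liver and 0.85% in brain. The island median of each column ran from 1 to 1.9% in liver and from 0.8 to 0.9% in brain, a small offset by which the columns of the tissues did not overlap.

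Among positions in genes, introns carried the largest shares of calls. Of 281106 intronic tiles 6.84% were higher and 5.95% lower in liver, and of 81736 coding exon tiles 4.7 and 3.41%. Intergenic tiles were called in 4.07 and 4.6% of cases. Promoter tiles, within 1000 bp upstream of a transcript start, were called in 1.92 and 2.23%. By distance to a start, calls were fewest within 500 bp, at 1.5% higher and 1.36% lower. Tiles lower in liver peaked at 2000 to 10000 bp from a start (6.37%), and tiles higher in liver at 10000 to 50000 bp (5.84%). Among tiles with 1 to 4 CpGs, outside islands and not repeat-masked, promoters reached 4.87% higher and 5.76% lower, and introns 8.45 and 6.92%. Repeat-masked tiles were called in 1.08% (higher) and 2.99% (lower), and other tiles in 6.01 and 5.2%. Every autosome held calls in both directions, from 4.53 to 5.53% higher and from 4.32 to 5.39% lower.

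**Figure D2:**
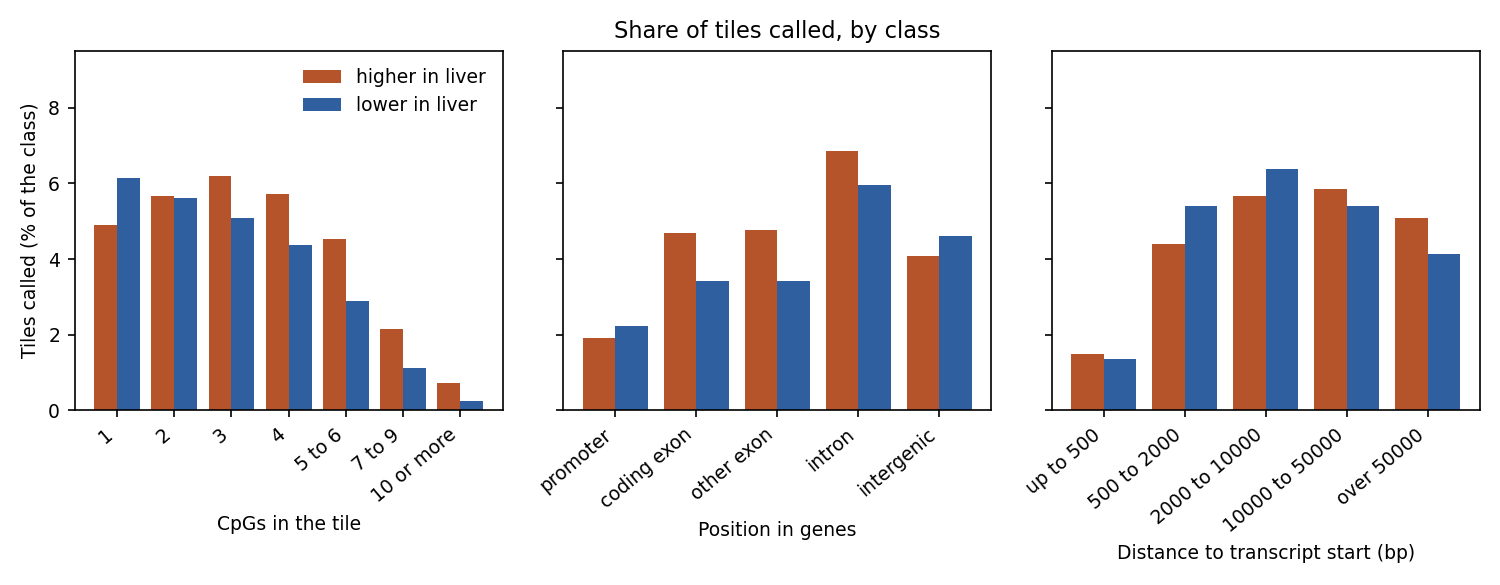
Share of tiles called in each class (y axis, % of the class), higher in liver in brown and lower in liver in blue, by number of CpGs, by position in genes and by distance to the nearest transcript start in bp. Tiles with 10 or more CpGs have the lowest bars (0.721 and 0.247%). The highest brown bar is that of introns (6.84%) and the highest blue bar that of tiles 2000 to 10000 bp from a start (6.37%).

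Neighbouring tiles moved together. Of 18653 pairs of adjoining tiles that were both called, 18597 (99.7%) had the same direction. Adjoining tiles can share reads, so they are not independent measurements. Merged over neighbours, the calls formed 29035 regions higher and 28060 regions lower in liver, of which 130 and 97 spanned 5 or more tiles.

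The longest region lay over coding sequence of Fignl2, a relative of the microtubule-severing protein fidgetin. It spanned 15 tiles at chr15:101052801-101054300, within a CpG island. Its mean level was 75.9% ± 2.35 in liver (SD, n = 12, from 71.9 to 79.5%) and 23.3% ± 4.66 in brain (SD, n = 6, from 14.4 to 27.3%). The heart mean was 35.3%. Further regions of 15 tiles lay in introns of Zmiz1, a transcriptional coregulator, and of Nfix, a nuclear factor I gene active in neural progenitors. The Zmiz1 island at chr14:25606801-25608300 had 45.6% ± 3.77 in liver (SD, n = 12) and 0.908% ± 0.234 in brain (SD, n = 6), with 0.94% in heart. At Nfix (chr8:84784101-84785600) liver had 54.4% ± 4.76 (SD, n = 12) and brain 14.8% ± 3.72 (SD, n = 6).

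Among regions lower in liver, 9 tiles over Rnf186, a membrane ubiquitin ligase gene, ran from the promoter into the gene at chr4:138967001-138967900. Levels there were 25.8% ± 3.54 in liver (SD, n = 12) and 83.5% ± 4.61 in brain (SD, n = 6). The 9 tiles in Ajm1, an apical junction gene, at chr2:25578601-25579500 were the only island among the longest regions lower in liver, with 10.5% ± 1.96 and 48.4% ± 9.82. The heart was close to liver there, at 7.64%. In an intron of Mtss1, which links actin to membranes, 8 tiles at chr15:58999101-58999900 had 25.7% ± 4.31 and 82.6% ± 2.52. No liver column overlapped a brain column in the mean of any of these 6 regions. The regions consist of called tiles only, which nearly fixes this separation.

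The single tiles with the largest difference are given next with the lowest, median and highest column. They were picked at 1 per protein-coding gene, among tiles with 3 or more CpGs whose liver and brain columns did not overlap. Among those lower in liver, the tile in coding exon 5 of Rasgef1b had liver levels of 2.4, 6.75 and 10.5% and brain levels of 78.3, 94.1 and 95%. The means differed by -84.4 points (SE 2.26, limma adjusted p = 5.9e-16), and 1 brain column lay apart at 78.3%. In intron 2 of Znrf3, a ubiquitin ligase that removes Wnt receptors from the cell surface, liver had 0, 10.5 and 22.2% and brain 83.7, 94.2 and 95.7%. The groups were far apart, by -81.3 points (SE 3.16, adjusted p = 4.3e-14).
The tile in intron 7 of Tmco4 had 7, 13.6 and 26.8% in liver and 92.8, 96.2 and 99.1% in brain, a difference of -80.1 points (SE 2.96). Intron 5 of Abca1, the transporter that loads cholesterol onto apolipoprotein A-I, had 3.5, 15.1 and 21.9% in liver and 91.2, 92.6 and 96.3% in brain (-79.8 points, SE 2.91). Both were near full methylation in every brain column and low in every liver column. In intron 15 of Kcnq1 liver had 5.1, 10.3 and 14.3% and brain 85.7, 90.6 and 95.2% (-79.8 points, SE 1.95). In intron 10 of Cmip the levels were 6.9, 12.6 and 22.9% and 88.8, 93.1 and 94.4% (-79.1 points, SE 2.19). The heart means of these 6 tiles ran from 51.8% (Rasgef1b) to 92.3% (Tmco4), all between the liver and brain means.

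Among the tiles higher in liver that met this rule, the 4 with the largest difference were listed at 0 in all 6 brain columns. They lie in intron 4 of Kazn, intron 9 of Foxp1, exon 4 of Leprotl1 and intron 2 of Akt1, and the liver means were 96.4% ± 3.51, 96.1% ± 3.51, 93.6% ± 3.31 and 90.9% ± 7.05 (SD, n = 12). Of all tiles, 787 were at 0 in all 6 brain columns and 87 in all 12 liver columns, the latter being harder to meet with more columns. The former include 72 tiles called higher in liver, which are 0.185% of such calls, and the latter include no tile called lower. Only 1.39% of the 72 contain CCGG, the MspI cut site, against 59% of all tiles. Of the 46 with a heart level, 42 were under 5% in heart and 0 were over 50%, and Leprotl1 had 1.12%. Whether the missing cut site and the heart levels have a part in these differences was not tested.

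The tile of Map4, in intron 8 of the transcript used and in coding sequence of another transcript, had 92.1, 94.9 and 96.2% in liver and 8.2, 13 and 23.6% in brain. The difference was 80.4 points (SE 2.41, limma adjusted p = 2.3e-15), and heart stood between them at 58%. In intron 1 of Trim67 liver had 82.5, 89.5 and 94%, and brain had 0, 0 and 50%, since 1 brain column stood at 50% and the others at or below 2.5%. Since 4 of these 6 tiles were at 0 in brain, the rule was applied again without tiles at 0 in all brain columns. This was decided after the values were seen, and it added 4 tiles. The Lrrc4 tile, which is also within Snd1, had 89.9, 96.4 and 100% in liver and 11.9, 15.6 and 23.6% in brain. Its heart mean was 77.1%, near to liver. Coding exon 10 of Tcf4, a helix-loop-helix factor of the nervous system, had 91, 93.2 and 97% in liver and 9.9, 13.2 and 27.1% in brain. The first exon of Pde4b, a cAMP phosphodiesterase, had 88.1, 93 and 95.5% against 6.1, 13.8 and 27.2%. Vxn, a gene of neuronal differentiation, had 82.2, 91.9 and 96.5% in its first intron against 10, 12.2 and 28%. The rule took only tiles whose groups did not overlap, so the separation in these 4 was fixed by it.

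**Figure D3:**
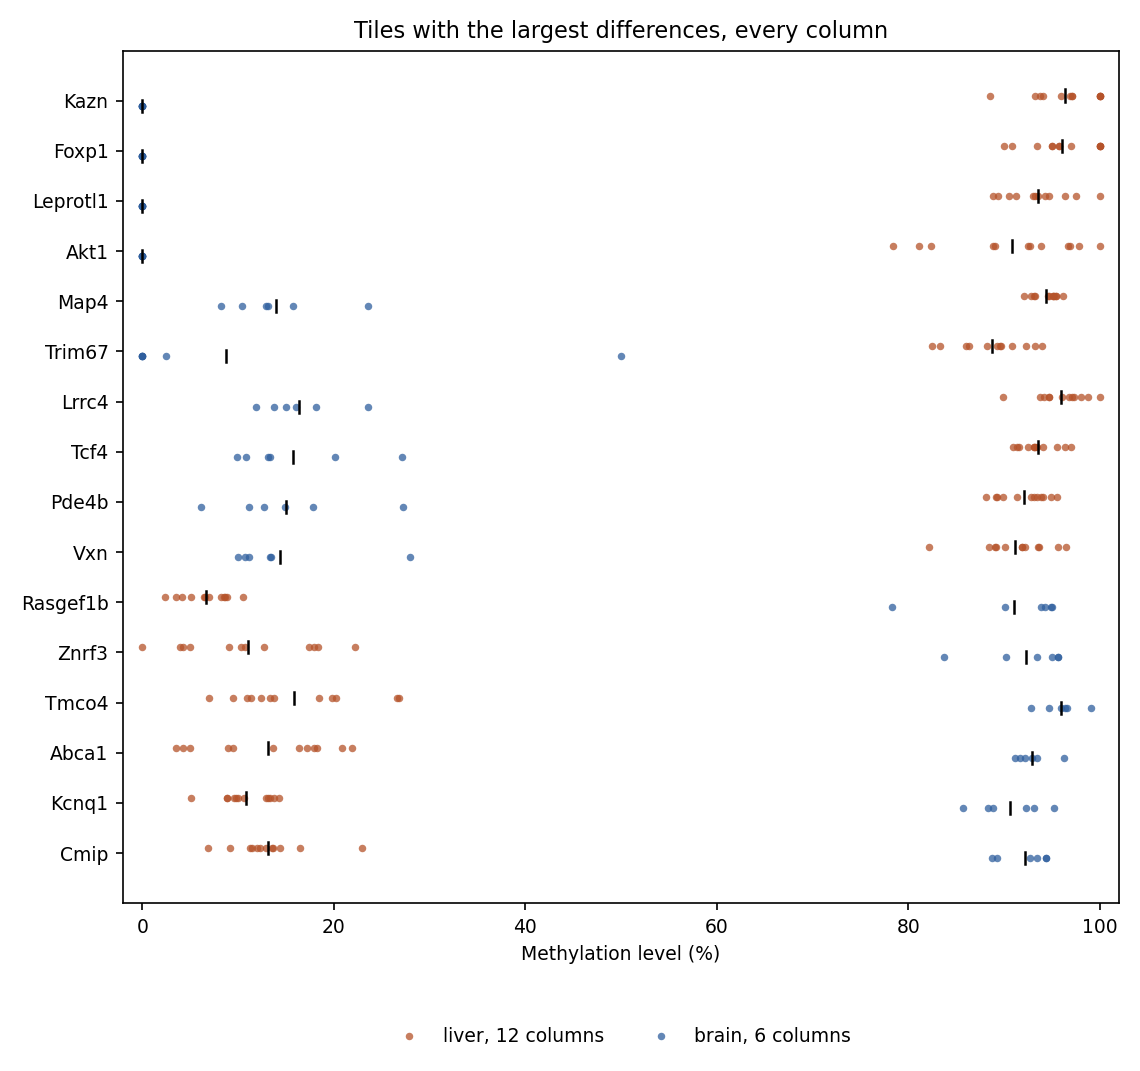
Methylation level (x axis, %) of the tiles with the largest differences, 1 row per gene, with a point for each of the 12 liver columns and 6 brain columns and a black bar at the mean. The upper 10 rows are higher and the lower 6 rows lower in liver. Kazn, Foxp1, Leprotl1 and Akt1 show all brain points at 0, and Trim67 shows 1 brain point at 50%.

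Genes that hepatocytes express held the highest shares of tiles lower in liver. Over 40 covered genes of secreted plasma proteins, 180 of 377 tiles (47.7%) were lower and 5 (1.33%) higher in liver, beside 4.75 and 5.01% of all tiles. Of these genes 35 had calls in the lower direction only, 2 in both and 3 none. All 8 tiles of Fgb and all 6 of Fgg (chains of fibrinogen), all 5 of Ahsg (fetuin-A) and all 4 of Vtn (vitronectin) were lower. The median difference over the list was -23.1 points. The mean over its tiles ran from 45.5 to 48.8% in liver columns and from 70 to 75.1% in brain columns, without overlap. Columns also separated in other lists, by less. Housekeeping genes had means from 28 to 29.4% in liver columns and from 25.8 to 27.4% in brain columns. At Alb, which encodes albumin, 3 tiles were covered and all were lower, with means of 20.7% ± 2.92 (SD, n = 12) and 89% ± 4.55 (SD, n = 6). At Trf 21 of 33 tiles were lower, and the tile shown above, in intron 9, had 13, 20.1 and 35.3% in liver and 67.1, 88.7 and 93.6% in brain.

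The few calls in the other direction lay mostly in F12, the coagulation factor XII gene, with 4 tiles higher and 2 lower. Its tile in exon 8 at chr13:55421201-55421300 had 52.6, 67.9 and 89.2% in liver and 5.7, 7.4 and 10.4% in brain, and a heart mean of 2.67%.

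Enzymes and transporters of hepatic metabolism followed, with 193 of 626 tiles (30.8%) lower and 16 (2.56%) higher. Lower calls alone were found in 30 of the 40 covered genes. Pck1, the entry enzyme of gluconeogenesis, was lower at 14 of 15 tiles, Tat, tyrosine aminotransferase, at all 9 tiles, and Cyp2e1, a cytochrome of ethanol oxidation, at all 6. In intron 1 of Fbp1, a further enzyme of gluconeogenesis, liver had 0, 17.2 and 38.9% and brain 84.6, 91.3 and 100%. Ass1 of the urea cycle had 14 tiles lower and 6 higher. At its tile in intron 9 (chr2:31495301-31495400) liver was at 73.1, 79.7 and 92.1% and brain at 28.5, 36.4 and 53.5%.

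Transcription factors of hepatocytes were split by gene. In all, 150 of 728 tiles (20.6%) were lower and 39 (5.36%) higher. Ppara had 34 of 62 tiles lower, and Hnf4a, the nuclear receptor that maintains hepatocyte identity, had 20 of 47 lower and 1 higher. The Ppara tile in intron 2 had 9.4, 14.8 and 26% in liver and 89.7, 92.8 and 97.7% in brain. Foxa1 and Foxa2, forkhead factors that open liver chromatin, had none called among 24 and 25 tiles. Gata4 and Gata6, zinc finger factors of heart and endoderm, held 13 and 12 of the 39 higher tiles. At the island tile in exon 2 of Gata4 (chr14:63241101-63241200) liver had 55.7, 67.5 and 75.2% and brain 3, 3.85 and 5.6%, with 6.5% in heart.

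Genes of myelinating and astrocytic glia held a larger share of tiles higher in liver than neuronal genes did. Over 20 oligodendrocyte genes 88 of 517 tiles (17%) were higher and 9 (1.74%) lower. Cnp, an enzyme of myelin, was higher at 9 of 16 tiles, Cldn11, the tight junction protein of myelin, at 7 of 16, and Mbp, myelin basic protein, at 20 of 113. The Mbp tile in intron 3 at chr18:82536301-82536400 had 77.2, 82.8 and 93.3% in liver and 26.2, 32.1 and 39.7% in brain. Mog, a myelin surface protein, was not called at any of 9 tiles, with means of 91.1% ± 1.34 in liver (SD, n = 12) and 73.5% ± 7.9 in brain (SD, n = 6). The mean over the oligodendrocyte tiles varied between brain columns more than over any other list. It was 48.9, 51, 46, 46.8, 48.7 and 54.4% in brain columns 1 to 6, each below the liver range from 57.3 to 58.9%. Every brain column also lay below the liver range in other lists, housekeeping genes among them.

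Over 15 astrocyte genes 60 of 435 tiles (13.8%) were higher and 30 (6.9%) lower. Glul, glutamine synthetase, had 8 of 30 tiles higher. The lower calls include 9 in Aldh1l1, a folate enzyme that marks astrocytes and is also made by hepatocytes. Aldh1l1 is on the list of hepatic metabolism as well, where its tiles are counted again. Its tile in intron 19 had 9.3, 20.8 and 25% in liver and 76.1, 80.6 and 84.4% in brain.

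Genes of synapses and axons had calls both ways. Of 3616 tiles over 41 genes, 331 (9.15%) were higher and 188 (5.2%) lower, and 23 genes had both. Ank3, which anchors channels at the axon initial segment, had 46 of 282 tiles higher and 18 lower. In its intron 1 (chr10:69720401-69720500) liver had 71.6, 88.8 and 94.9% and brain 4.3, 23.5 and 27.6%, whereas in intron 26 (chr10:69941801-69941900) liver had 18.2, 27 and 49.4% and brain 91.8, 94.3 and 96.3%. Shank2, a postsynaptic scaffold, had 25 of 119 tiles higher and 1 lower, while Shank1 had 8 of 73 lower and none higher. Transmitter receptors and channels had 198 of 2922 tiles (6.78%) higher and 123 (4.21%) lower. Beside 5.01 and 4.75% of all tiles, and 6.84 and 5.95% of intronic tiles, the shares of this list and the lower share of the synapse list were near the background. Gabbr2, a subunit of the GABA-B receptor, had 40 of 284 higher, and Grik4, a kainate receptor subunit, 23 higher and 16 lower of 254.

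Neural transcription factors were mostly without calls: 45 of 1207 tiles (3.73%) were higher and 33 (2.73%) lower, and 25 of 37 covered genes had none. Their tiles are CpG-rich, with 5.79 CpGs on average, and 70.3% were below 20% in liver and 66.4% in brain. Bcl11b held 23 of the higher tiles. Its tile shown above, in intron 3, had 67.4, 78.5 and 86.7% in liver and 4.9, 10.1 and 12.4% in brain. Pax6, a factor of eye and forebrain, had 7 tiles lower in liver and none higher, and in coding exon 7 liver had 0, 5.85 and 11.4% and brain 24.5, 45.2 and 68.9%.

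Other lists stood at or below the background, with exceptions. Leukocyte genes had 2.62% of 191 tiles called in each direction and endothelial genes 2.61% higher and 2.15% lower of 652. Ptprc (CD45) had 3 of 10 tiles higher and Csf1r, the receptor of macrophages and microglia, 3 of 8 lower in liver. Hox genes were nearly without calls (2 of 662 tiles each way), as were germline genes (3 higher and 2 lower of 326). At the Hox gene tile called with the largest difference, in exon 4 of Hoxb3, liver columns ran from 4.8 to 100% and overlapped brain. Pluripotency genes had 1.55% higher and 5.88% lower of 323 tiles, and 16 of the 19 lower tiles lay in Esrrb, an orphan nuclear receptor. Among 614 tiles of imprinted genes 8.63% were higher and 2.61% lower. They include 9 tiles of Igf2r, the receptor that clears IGF2, 8 of Airn and 6 of Nnat, a brain-expressed imprinted gene, all higher in liver. Igf2r and Airn overlap, so a tile within both is counted for each gene. The Igf2r promoter tile at chr17:12769701-12769800 had 26.8, 42.7 and 55.5% in liver and 5.1, 7 and 17.5% in brain, with 39.1% in heart. Of the enzymes and readers of methylation, 7.16% of 559 tiles were higher and 2.15% lower, with 17 higher and 3 lower in the methyltransferase gene Dnmt3a. Housekeeping genes had 4.65% higher and 1.4% lower of 215 tiles.

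**Figure D4:**
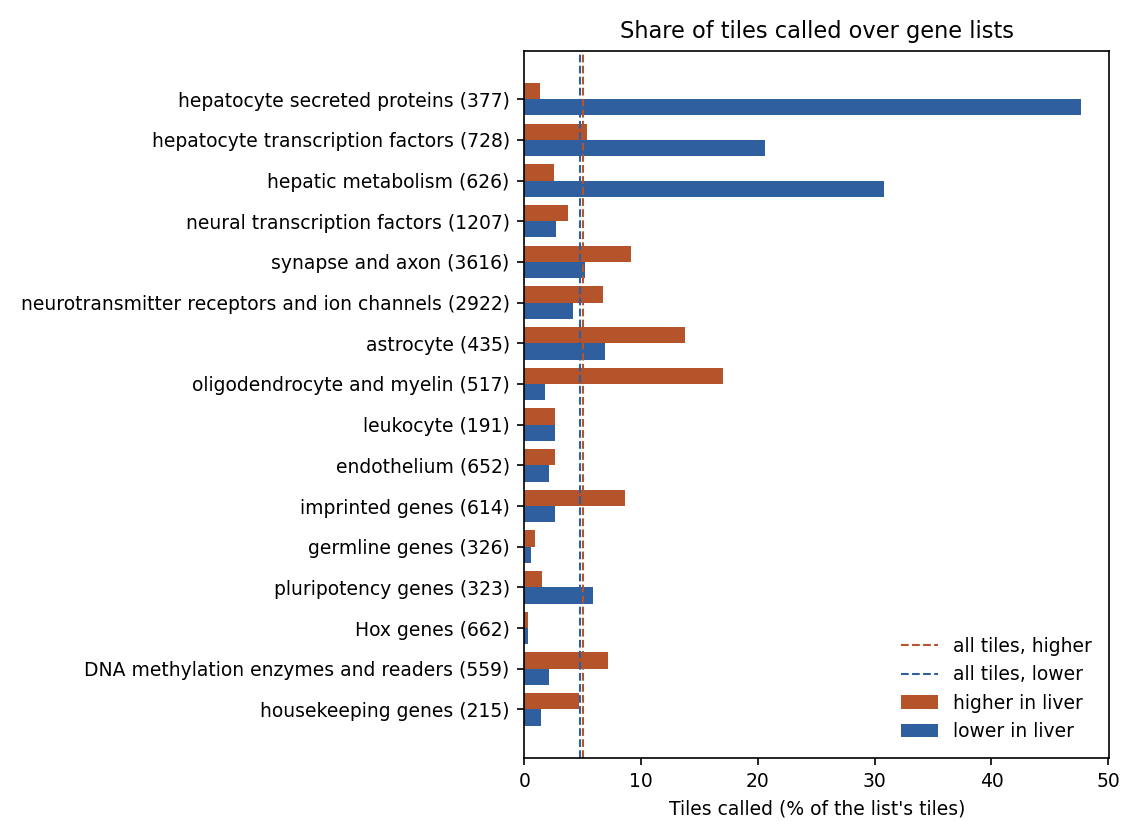
Share of the tiles of each gene list (x axis, %; number of tiles in brackets) that were called higher (brown) or lower (blue) in liver, with dashed lines at 5.01 and 4.75% for all tiles. The 3 hepatocyte lists have the longest blue bars, up to 47.7%, and the oligodendrocyte list the longest brown bar, 17%.

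Across all 7131 protein-coding genes with 20 or more tiles, 5834 had a called tile and 2948 had calls in both directions. With 5.01 and 4.75% of all tiles called, most genes with so many tiles would hold a call if calls were spread evenly. The counts therefore depend on the number of tiles per gene. The genes with the largest share of called tiles were picked after their values were seen and describe the extremes. The 8 with the largest share in each direction are given. Lower in liver were 29 of 44 tiles of H6pd, an enzyme that makes NADPH in the endoplasmic reticulum, 17 of 26 of Ajm1, 21 of 33 of Trf, 16 of 26 of Adipor2, an adiponectin receptor of liver, 16 of 28 of Fbp1, 18 of 32 of Hpn, a hepatocyte surface protease, 43 of 78 of Rxra, the partner of many hepatic nuclear receptors, and 34 of 62 of Ppara. The mean over the Rxra tiles was 28.4% ± 1.9 in liver (SD, n = 12, from 25.3 to 31.3%) and 58.3% ± 2.59 in brain (SD, n = 6, from 54.2 to 61.2%). Higher in liver were 15 of 21 tiles of Fignl2, 14 of 20 of Pcbp4, an RNA-binding protein, 15 of 25 of Prob1, 14 of 27 of Tnfaip2, a gene induced by tumour necrosis factor, 19 of 38 of Fam83h, a gene of enamel formation, 18 of 37 of Klf7, a factor of neuronal outgrowth, 12 of 25 of Nyap1, a neuronal adaptor of PI3 kinase, and 14 of 30 of Enc1, an actin-binding protein of neurons. At Prob1 brain (7.6%) and heart (5.08%) were alike and liver had 34.9% ± 2.75 (SD, n = 12).

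Promoters differed at few genes. The mean over 3 or more tiles from 1000 bp upstream to 500 bp downstream of the start could be computed for 14183 genes, and 11632 of them (82%) were below 20% in both tissues. Higher in liver were 113 (0.797%) and lower 132 (0.931%), while 17.8% had columns that did not overlap, mostly by small amounts. Called promoters were poor in CpGs, with a median of 3 CpGs per tile against 7.67 in the others.

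The promoter of Vxn had 84.2, 91.3 and 93.7% in liver and 9.47, 20.3 and 24.6% in brain, a difference of 72.3 points (SE 1.97, limma adjusted p = 2.2e-17). For Lrrc4 liver had 95.1, 96.6 and 98.1% and brain 27.4, 33 and 39.4%. Slc25a25, a mitochondrial carrier of ATP, had 55.7, 64.9 and 69.2% against 1.95, 5.28 and 6.25%. The other 2 of the 5 largest were Gm31333 (75.4% ± 6.72 against 12.1% ± 5.51) and Minar2 (71% ± 2.73 against 12.3% ± 2.94). Liver and brain columns were separate in all 5, which the choice of the largest differences nearly fixes.
In the other direction Slc23a1, a vitamin C transporter, had 11.3, 20.3 and 25.1% in liver and 86.6, 91.6 and 95% in brain, a difference of -71.4 points (SE 1.65, adjusted p = 1.7e-18). Acsm3, a mitochondrial acyl-CoA synthetase, had 10.5, 12.8 and 21.1% against 80.7, 83.5 and 86.5%. Ifi47, an interferon-induced GTPase, had 3.27, 5.08 and 9.2% against 67.8, 74.9 and 83%. Mir5123 (5.05% ± 1.82 against 72.4% ± 6.88) and Gm31583 (21.4% ± 4.2 against 88.1% ± 3.3) completed the 5 largest.

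Marker genes were read as a check of the tissues. Of the hepatocyte markers only Apob, the core protein of very low density lipoprotein, had a covered promoter, with 20.5, 25.4 and 34.4% in liver and 88.5, 91.1 and 93.3% in brain. Over whole genes, 22 of 41 tiles of hepatocyte markers were lower and 0 higher, in 5 of 6 genes covered. Of the 5 neuronal promoters 4 were below 5% in both tissues: Snap25, a vesicle fusion protein, had 3.99% ± 0.894 in liver and 1.45% ± 0.441 in brain, Rbfox3 (NeuN) 3.04% ± 0.735 and 0.787% ± 0.2, Syt1, a calcium sensor of vesicles, 3.74% ± 0.9 and 1.33% ± 0.281, and Tubb3, a neuronal tubulin, 3% ± 0.797 and 0.867% ± 0.275. The columns of these 4 did not overlap, and the differences of 2.14 to 2.54 points were far below the size required. Over all promoters 17.8% had columns without overlap. A small offset in the same direction was seen over all CpG islands, with column medians from 1 to 1.9% in liver and from 0.8 to 0.9% in brain. Map2, a microtubule-associated protein of dendrites, had 16.3% ± 1.28 and 16.9% ± 1.38, with overlapping columns. Of the tiles of neuronal markers 49 of 514 were higher and 15 lower, beside 5.01 and 4.75% of all tiles. Astrocyte markers had 18 of 105 tiles higher and 13 lower, and oligodendrocyte markers 28 of 167 higher and 6 lower. Leukocyte markers had 3 of 40 higher and 3 lower, and endothelial markers 1 of 148 higher and 6 lower. Mag, a myelin glycoprotein, had a promoter mean of 88.8% ± 3.07 in liver and 64.3% ± 9.69 in brain. Its 24.6 points fell just short of a call, and without brain column 1, 2 or 6, or without liver column 2, it was called, at 25.1 to 26.9 points. Gfap, the intermediate filament of astrocytes, had 76.2% ± 3.26 and 68.1% ± 1.91, with overlapping columns. The Aldh1l1 promoter was lower in liver, at 4.81% ± 1.18 against 32.5% ± 3.94. The promoter of Kdr, an endothelial receptor, had 4.49% ± 1.34 and 11% ± 1.98 and was not called.

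**Figure D5:**
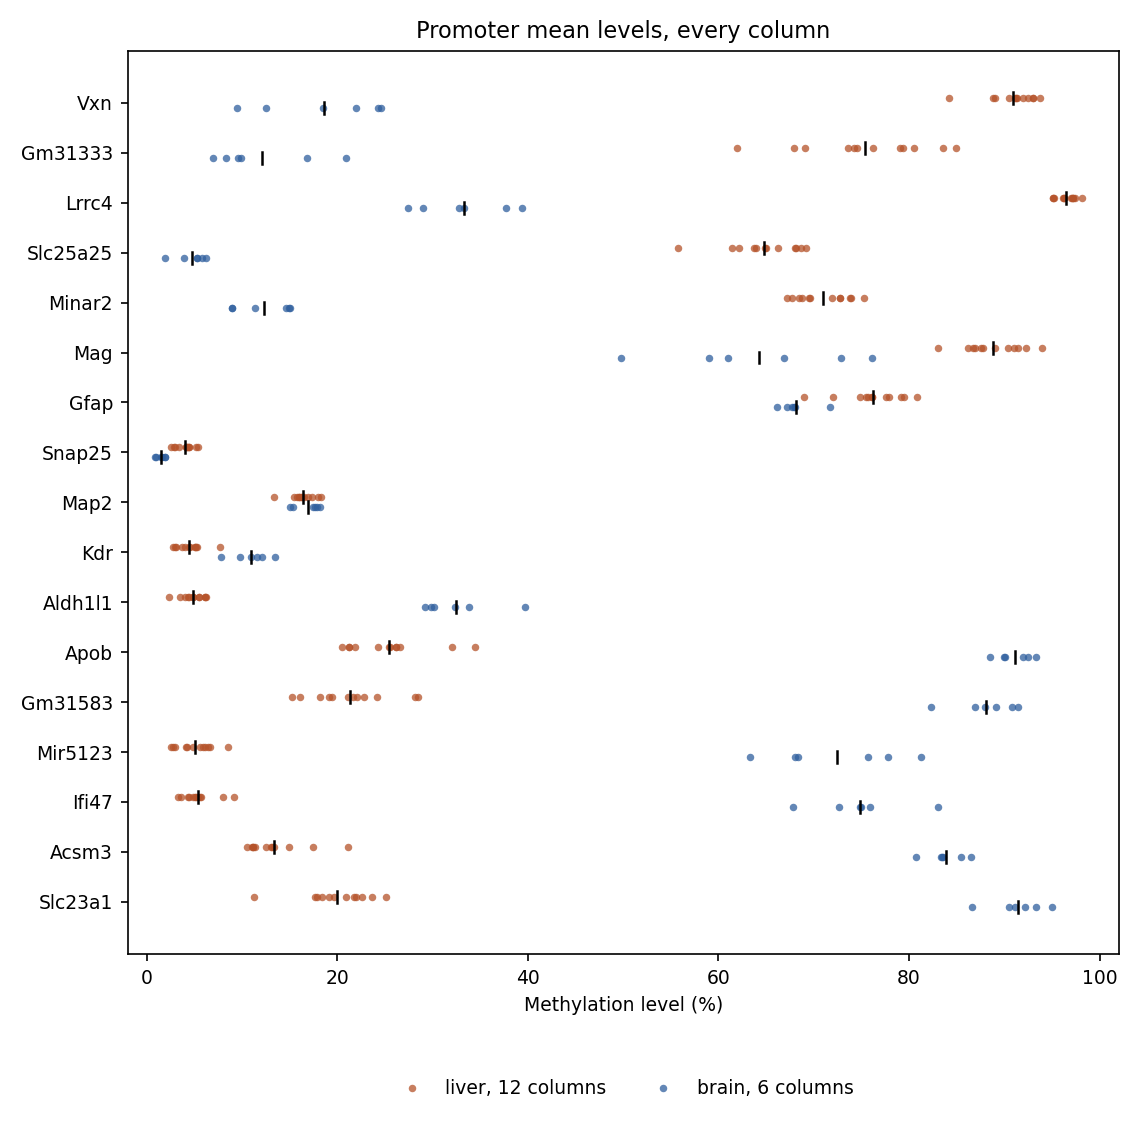
Mean methylation level of promoters (x axis, %), 1 row per gene, with a point for each of the 12 liver and 6 brain columns and a black bar at the mean. The first 5 and last 5 rows are the promoters with the largest differences, and the rows between are marker genes, of which Aldh1l1 and Apob were called.

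Short binding motifs were counted in the 100 bases of each tile on both strands, with motifs chosen with results known. Exact letters were searched, in which N stands for any base. TGTTTAC, bound by FOXA factors, was present in 2.89% of tiles lower, 0.796% of tiles higher and 0.975% of tiles not called, with 1.06% of all tiles. CAAAGTCCA, bound by HNF4A, was present in 0.499, 0.0618 and 0.0854%, or 184, 24 and 598 tiles. GTTAAT, one arm of the HNF1 site, was present in 3.3, 2.62 and 2.24%, and TTGCGCAA, bound by C/EBP factors, in 22 tiles lower, 0 tiles higher and 137 tiles not called. ACAATGG, bound by SOX factors, was present in 2.07% of tiles higher, 0.942% of tiles lower and 1.02% of tiles not called, and CAGATG, an E-box of NEUROD and ATOH factors, in 9.77, 7.11 and 6.93%. In the same order, TGANTCA of AP-1 was found in 3.26, 3.08 and 2.23%, and GCGTGGGCG of EGR1 in 0.0335, 0.0163 and 0.0696%.
The shares were then read at like CpG numbers. Among unmasked tiles with 1 to 4 CpGs outside islands, TGTTTAC was in 3.27% of tiles lower, 0.821% of tiles higher and 1.19% of the rest, CAAAGTCCA in 0.564, 0.0705 and 0.113%, and ACAATGG in 1.04, 2.19 and 1.2%. In the same order TTGCGCAA was in 0.0642, 0 and 0.0123% and TGANTCA in 3.41, 3.46 and 2.88%. For 3 motifs the order changed. GTTAAT was in 3.64, 2.76 and 2.83%, so that tiles higher in liver no longer exceeded the rest. CAGATG was in 7.57, 10.1 and 8.05%, so that tiles lower in liver fell below the rest. GCGTGGGCG was in 0.0101, 0.0153 and 0.00818%, so that called tiles no longer lay below the rest. This last change rests on few tiles, since only 13 tiles higher and 6 tiles lower held GCGTGGGCG before the restriction. None of the 5 tiles lower in liver shown above holds TGTTTAC or CAAAGTCCA, and the Trf tile starts with a match to TGANTCA.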

How the data were processed

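Enhanced RRBS libraries of 12 livers, 6 brains and 6 hearts were prepared, sequenced and mapped commercially. The labels name the genome build mm10 and the tools Bismark and methylKit, without versions. The authors deposited, for each tissue, a table of methylation levels per 100 bp tile as a fraction between 0 and 1, for tiles covered by more than 10 reads in every replicate sample and not of extreme coverage. Read counts per tile were not used here, so the depth behind a level is unknown beyond that minimum, and no counting interval is given. Levels are printed as percentages. The tables hold the 19 autosomes.

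Tiles were matched by position and fitted over the 18 liver and brain columns with limma 3.58.1 in R 4.3.3 (linear model on the fraction, empirical Bayes with a mean trend, Benjamini-Hochberg adjustment over all tiles), with calls at an adjusted p of 0.01 and 25 points. The p-values rest on the spread between columns, in which mouse, dissection, library and read sampling cannot be told apart. The fit treats brains and livers that share mice as separate samples. CpGs, masked bases (50 or more for a masked tile) and sequences were read from mm10. CpG islands were found with a cumulative score (17 per CpG, otherwise -1) and had over 200 bp, 50% GC and a ratio of observed to expected CpGs over 0.6. Genes were 43783 curated RefSeq transcripts. Of the tiles, 99.9% held a CpG, against 55.4% after a shift of 100000 bp. The fit was tested on simulated data.

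Tiles and promoters with the largest differences and the longest regions (6, 5 and 3 in each direction) were named by rule. These tiles needed 3 or more CpGs and no overlap of liver and brain columns. In each of 16 gene lists the gene with the most calls in each direction was named. The comparison, the lists and the rules were chosen with earlier results of these data known. Males and females were not compared, since no column could be given a gender. Alternatives covered the scale, the thresholds, the scaling of columns, the filters, the promoter window and leaving out each column. Results for 1 gene and 1 motif are not reported here.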

Additional observations from a re-analysis of the deposited data

Results flagged for a closer look

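In 70 results the 6 brain columns were read for 1 column far from the other 5, and 9 were marked, where chance marks about 1 in 20. Liver, with 12 columns, was not read this way. Brain column 1 stood apart in 4 of them. It had 78.3% at the Rasgef1b tile (others 90.1 to 95%), 28% at the Vxn tile (others 10 to 13.4%), 17.5% at the Igf2r promoter tile (others 5.1 to 8.5%) and 12.5% at the Hoxb3 tile (others 0 to 2.1%). Brain column 2 stood apart in 3, with 77.7% at the Tex14 tile (others 65 to 69.6%), 41% at the Lin28a tile (others 26.7 to 32%) and 67.7% at the Gusb tile (others 31.6 to 44.4%). Brain column 4 had 50% at the Trim67 tile (others 0 to 2.5%) and 71.7% at the promoter of Gfap (others 66.1 to 68%). Each of the 8 tiles kept its call without that column. The cause was not tested.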

How the results depend on the processing

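Counts stayed within 1.5 times of the reported ones under a logit scale, without the mean trend, with columns weighted by tissue, with quantile normalization (41390 tiles higher and 34877 lower in liver than in brain), with equal column means, without masked tiles, over tiles of all 3 tables, and with neighbours merged. Leaving out each column gave 37696 to 40419 tiles higher and 35789 to 39018 lower, and 109 to 121 promoters higher and 130 to 140 lower. After seeing the data, leaving out tiles at 0 in all brain columns (38768 and 36855) and brain columns 1 and 6, which varied most (41053 and 37886), were added. The size required moved the counts by construction. At 10 points 98760 tiles were higher and 84779 lower, and 458 promoters higher and 470 lower. At 40 points 11734 tiles were higher and 17917 lower, so that the share of higher calls changed from 51.3 to 39.6%, and 35 promoters were higher and 69 lower, with a share of 33.7% in place of 46.1%. Among tiles with 3 or more CpGs, a smaller set, 17377 were higher and 13016 lower. With 250 bp on both sides of the start 192 promoters were higher and 264 lower, and with 1 tile sufficing 242 and 349. For 71 named tiles and promoters none of 1612 alternative values reversed or lost a call, and 4 gained one, all for the Mag promoter. Most of these items were picked for large differences, and marker promoters without a call had none to lose. The selection thus largely fixed this tally. No paired analysis was possible because the columns carry no mouse number. Depth per tile is unknown, so levels from few reads could not be set apart.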
